A study of Homo sapiens with 12 samples.

Results

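The comparison set out here is between the 2 control arms of a study on intronic microRNAs and mRNA splicing: HEK293T cells that received a control plasmid and HEK293T cells that received a scrambled oligo. Its 6 libraries, 3 in each group, were chosen by their titles from the 12 libraries of the series, and gene counts from the unstranded column were used. HEK293T cells descend from human embryonic kidney and express the large T antigen of SV40. The other 6 libraries, used here as a second plasmid-against-oligo contrast, are 3 from cells given a miR-211 plasmid and 3 from cells given an siRNA of the Dicer-substrate type that targets the U1 small nuclear RNA.

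Per the labels, plasmids were given as 500 ng with a cationic lipid reagent, siRNA against U1 at 1 nM, and total RNA was taken after 24 h. The amount of the scrambled oligo, the backbone and promoter of the control plasmid, and whether oligos were delivered with the same reagent are not stated in the labels. The treatment text reports GFP fluorescence in transfected cells without saying which construct carries it. Titles of the scrambled oligo and U1 siRNA libraries carry the letters WT, and titles of the plasmid libraries do not. What WT marks is not stated in the titles. Neither control arm carries the microRNA or the siRNA under study. The groups therefore differ in plasmid DNA against oligo, in anything the plasmid encodes, and in any difference between the experiments. They may also differ in what WT marks. These cannot be told apart. Nothing in the labels says that replicates came from separate cultures; the p-values then reflect the spread between libraries alone, which may be technical.

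Plasmid DNA in a cell must reach the nucleus to be transcribed, and DNA in the cytosol can be sensed by receptors such as cGAS, which signals through STING to interferon genes. Short double-stranded oligos act in the cytosol, where Dicer and Argonaute proteins handle them, and long or unusual RNAs are sensed by RIG-I, MDA5 and PKR. Lines derived from HEK293 are known for a weak response to cytosolic DNA. Transfection can also load the endoplasmic reticulum and alter amino acid supply, which is followed by the unfolded protein response and by ATF4, a transcription factor of amino acid synthesis and transport.

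Gene counts were 6226067 to 7484566 per library with the control plasmid and 5903205 to 9290686 with the scrambled oligo. Pairs outside annotated exons made up 21.8%, 14.5% and 16.8% of uniquely mapped pairs with the plasmid and 18.6%, 22.03% and 25.5% with the oligo, and the groups overlapped (difference of means -4.32 percentage points, two-sided exact permutation test p = 0.2, where 3 against 3 cannot go below 0.1). The third scrambled oligo library had both the largest share outside exons and the most genes detected (36453 against 24728 to 30506 in the other 5). Of 10 HEK293T markers, 8 passed the filter on low counts, with a summed level of 186 to 222 CPM (gene counts scaled to a common library total over all 12 libraries), while PAX2 had 0 to 4 counts per library and LHX1 0 to 5. Marker lists of other cell types were near 0 in both groups: 17 to 54 counts per library for fibroblasts (17 to 53 with plasmid, 21 to 54 with oligo), 13 to 27 for blood, 18 to 32 for melanocytes, 6 to 20 for epithelial lines and 3 to 18 for hepatocytes.

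No gene passed the threshold. Of 12650 genes tested with edgeR's quasi-likelihood test, 0 (0.0%) had an adjusted p under 0.05, and the smallest adjusted p was 0.0525. In all, 986 genes (7.79%) had an unadjusted p under 0.05, 443 higher (3.5%) and 543 lower (4.29%) with the plasmid. The 3 plasmid libraries lay wholly above the 3 oligo libraries for 840 genes (6.64%) and wholly below for 868 (6.86%). DESeq2, the other main count test, called 34 of the 3114 genes to which it gave an adjusted p (1.09%), 22 higher (0.706%) and 12 lower (0.385%), and limma-voom called 3 of 12650. Without the third scrambled oligo library edgeR called 21 genes, and without the first or the third control plasmid library 1. Differences were small: of 7430 genes with a mean of at least 10 CPM, 99.8% had a log2 fold change within 0.5 of 0 and 14 lay outside. Fold changes are given as control plasmid minus scrambled oligo on the log2 scale, with their standard error (SE).

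**Figure D1:**
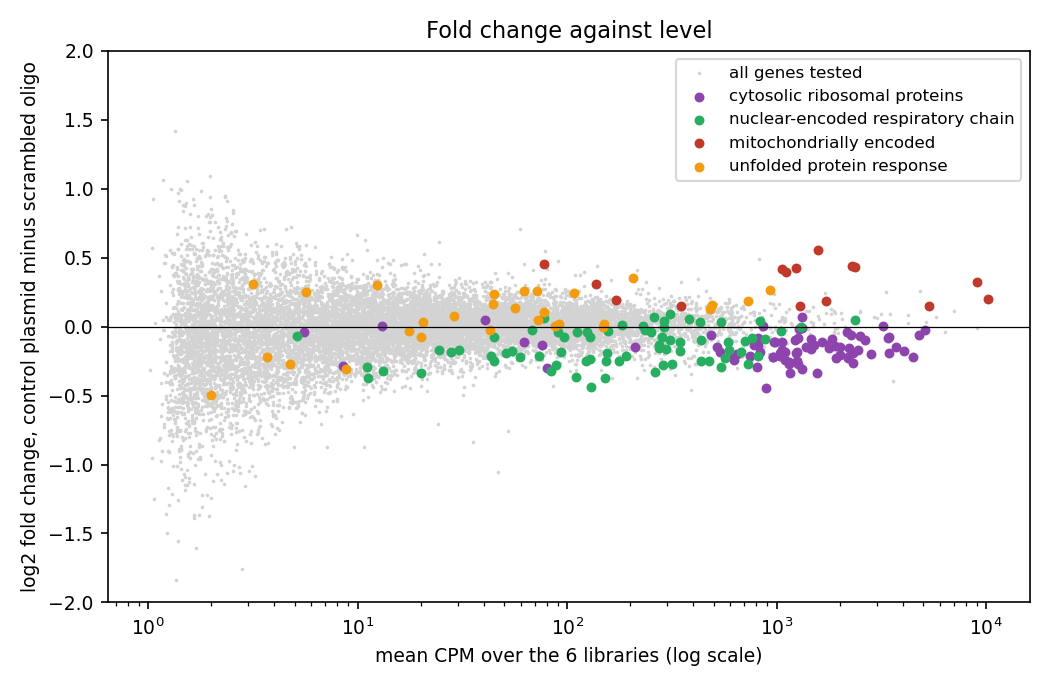
Log2 fold change of each of the 12650 genes tested (vertical axis, control plasmid minus scrambled oligo) against its mean CPM over the 6 libraries (horizontal axis, log scale), each point a gene. The 15 mitochondrially encoded genes lie above 0, most cytosolic ribosomal protein and nuclear-encoded respiratory chain genes lie below it, and nearly all genes of at least 10 CPM lie within 0.5 of 0.

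The RNAs encoded by mitochondrial DNA stood higher with the plasmid. These genes code for core subunits of the respiratory chain and ATP synthase and for the mitochondrial ribosomal RNAs, and are transcribed as long precursors inside the organelle. All 15 on the list had a higher value with the control plasmid, where 48.8% of all genes tested did, and their median log2 fold change was 0.32 against -0.004 over all genes. None passed edgeR's threshold, 10 had an unadjusted p under 0.05, and in 8 the 3 plasmid libraries lay above the 3 oligo libraries. Over all genes, 3.5% were higher at that p and 6.64% had plasmid libraries wholly above. DESeq2 called 6 of the 15, all higher. All 15 stayed higher when each of the 6 libraries was left out in turn, and the median ranged from 0.23 (without the third scrambled oligo library) to 0.46 (without the first).

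MT-CYB, the cytochrome b of complex III, had 2822, 2692 and 2633 CPM with the control plasmid and 2147, 1973 and 1866 with the scrambled oligo. The groups did not overlap (2716 ± 96.8 against 1995 ± 142 CPM, SD, n = 3 each; log2 fold change 0.43, SE 0.07; edgeR adjusted p 0.0644, DESeq2 adjusted p 7.95e-07). MT-ATP8, a small subunit of ATP synthase, had 93.1, 91.7 and 84.0 CPM against 64.0, 65.1 and 64.7 (0.46, SE 0.08). MT-ATP6, whose reading frame overlaps that of MT-ATP8, had 1353, 1261 and 1181 CPM against 1047, 911 and 899.6 (0.40, SE 0.08). In each of these genes the lowest plasmid library exceeded the highest oligo library. Reads of MT-ATP6 and of the nearby genes can also be assigned to MTATP6P1, a near-identical copy on a nuclear chromosome, so both are uncertain. MTATP6P1 had a log2 fold change of 0.41 (SE 0.09).

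The mitochondrial genes did not differ by equal amounts. MT-RNR1, the small ribosomal RNA, had the highest fold change (0.56, SE 0.13), with 2376, 1486 and 1800.0 CPM against 1468, 1188 and 1155. Its groups overlapped on CPM scaled within the 6 libraries, and its DESeq2 adjusted p was 0.269. MT-CO3, a subunit of complex IV, had 3035, 2559 and 2331 CPM against 2157, 1848 and 1774 (0.44, SE 0.10). The lowest were MT-ND4 (0.15, SE 0.07), MT-ND4L (0.15, SE 0.07) and MT-CO2 (0.15, SE 0.08), 2 subunits of complex I and 1 of complex IV. MT-CO1, the catalytic subunit of complex IV, was uneven within the oligo group, at 9391, 9211 and 5440.0 CPM against 11411, 8886 and 10092, so the groups overlapped (0.32, SE 0.16). MT-ND6, the protein-coding gene on the other strand of the mitochondrial genome, had 205, 174 and 171 CPM against 172, 156 and 150.1, which overlapped (0.19, SE 0.08). As a share of all gene counts, RNA from the mitochondrial chromosome made up 4.59%, 3.76% and 4.08% with the plasmid and 3.82%, 3.42% and 2.97% with the oligo, a difference of means of 0.739 percentage points (two-sided exact permutation test p = 0.2). In bulk RNA, more mitochondrial RNA per cell and less other RNA per cell cannot be told apart. The share of pairs outside exons had a lower mean with the plasmid, though the groups overlapped, as given above. With this share as a covariate the median of the 15 genes was 0.26.

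**Figure D2:**
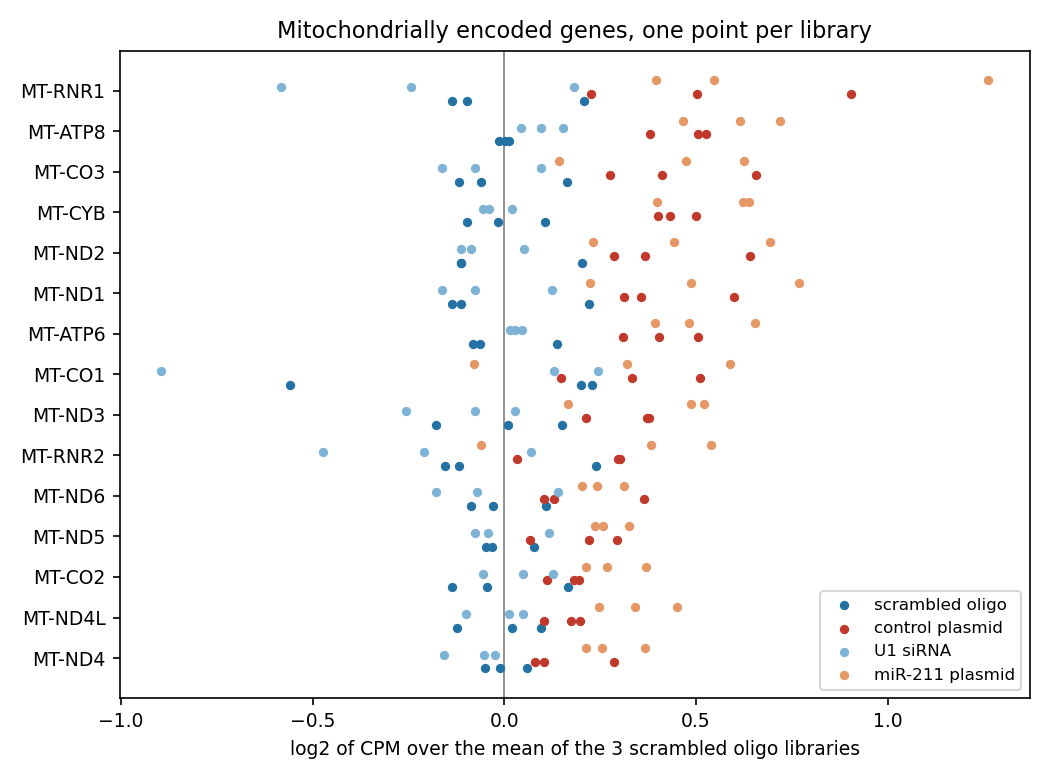
Levels of the 15 mitochondrially encoded genes in all 12 libraries, as log2 of CPM over the mean of the 3 scrambled oligo libraries (horizontal axis), one point per library, coloured by group. Control plasmid and miR-211 plasmid libraries lie mostly to the right of both oligo groups, by most for MT-RNR1 and least for MT-ND4, MT-ND4L and MT-CO2.

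Nuclear factors that copy, transcribe or process mitochondrial DNA and RNA lay on both sides of 0. Of 24 tested, 13 had a higher and 11 a lower value, with a median of 0.02. Of these, 1 had an unadjusted p under 0.05, where 7.79% of all genes did. That gene was SLIRP, a protein that stabilises mitochondrial mRNAs, which was lower (-0.24, SE 0.08). The list was added after values had been seen.

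Most nuclear-encoded subunits of the respiratory chain and ATP synthase were lower in value with the plasmid. Of 73 tested, 61 had a lower and 12 a higher value, with a median of -0.17, where 51.2% of all genes had a lower value. None passed edgeR's threshold. An unadjusted p under 0.05 was reached by 29, all lower, where 4.29% of all genes were lower at that p. In 25 the plasmid libraries lay wholly below the oligo libraries, where 6.86% of all genes did. DESeq2 called none. By complex, 29 of 34 complex I genes, 7 of 9 complex III genes, 10 of 10 complex IV genes and 13 of 15 ATP synthase genes were lower, with medians of -0.16, -0.22, -0.23 and -0.11. Of the 4 succinate dehydrogenase genes of complex II, 1 was lower and 3 were higher, with a median of 0.02. COX6A1, a complex IV subunit, had 97.2, 119.8 and 117 CPM with the plasmid and 142, 125 and 178 with the oligo (-0.43, SE 0.11). UQCRQ, a complex III subunit, had 87.3, 102 and 101 CPM against 125, 104 and 139 (-0.36, SE 0.10). In both genes the groups were close at the second scrambled oligo library. Without the first control plasmid library the median was -0.10 and without the first scrambled oligo library -0.11. The list's mean log2 CPM, relative to all genes, was 3.10, 3.32 and 3.27 with the plasmid and 3.41, 3.30 and 3.35 with the oligo. By that measure the groups overlapped. Its summed level was 20688, 23437 and 23074 CPM against 24372, 23466 and 23561, which did not overlap but came close in the second libraries.

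Messenger RNAs of the cytosolic ribosome were also lower in value. Ribosomal protein mRNAs are short and abundant, and many start with a run of pyrimidines, the 5′ terminal oligopyrimidine (TOP) tract, through which growth signals control their translation. Of 79 tested, 74 had a lower and 5 a higher value, with a median of -0.15, where 51.2% of all genes had a lower value. None passed edgeR's threshold. An unadjusted p under 0.05 was reached by 41, all lower, where 4.29% of all genes were lower at that p. In 36 the plasmid libraries lay wholly below the oligo libraries, where 6.86% of all genes did. DESeq2 called 4, all lower: RPS29, RPL31, RPL34 and RPL41.

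The first bases around the annotated start of several of these genes are shown to make the tract visible. Beside them stand EIF4A2, which has a tract and a lower value, EEF1A1, which has a tract and a higher value, and COX6A1, which has no tract and a lower value. Each sequence is 30 bases of the RefSeq promoter table (GRCh38.p14), sense strand, 15 before the start and 15 from it, and capitals mark the pyrimidine run that begins at the start.
RPL31 (chr2:101002274-101002303, plus strand): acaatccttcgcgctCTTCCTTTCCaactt
RPS21 (chr20:62387088-62387117, plus strand): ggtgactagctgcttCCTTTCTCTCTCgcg
RPL41 (chr12:56116618-56116647, plus strand): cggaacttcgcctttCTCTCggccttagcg
EIF4A2 (chr3:186783562-186783591, plus strand): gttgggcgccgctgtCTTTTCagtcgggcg
EEF1A1 (chr6:73521018-73521047, minus strand): gtcgccgtgaacgttCTTTTTCgcaacggg
COX6A1 (chr12:120438098-120438127, plus strand): ttccggcgctgcggcagtccagatcaaaaa

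A tract, counted as C at the annotated start followed by 4 bases of C or T on the sense strand, was present in 47 of the 63 ribosomal protein genes found in the promoter table (74.6%), in 7.51% of 9121 tested genes with an entry and in 5.14% of all 27305 entries. A match is a description of these letters only. The median log2 fold change was -0.18 for the 47 ribosomal protein genes with the tract and -0.10 for the 16 without. Translation factors and other mRNAs known as TOP mRNAs had the tract in 14 of 15 genes and a median of -0.04 over those 14. Respiratory chain genes had a median of -0.18 with the tract (8 genes) and -0.13 without (51). Noncoding host genes of small nucleolar RNAs, described below, had -0.20 with the tract (6 genes) and -0.06 without (12). The other 571 tested genes with the tract, outside all lists, had a median of 0.01. Their median transcript length was 2620 nt, longer than that of most ribosomal protein mRNAs. EEF1A1, the elongation factor that brings aminoacyl-tRNA to the ribosome, had 7143, 7608 and 7182 CPM with the plasmid and 6945, 6396 and 6719 with the oligo (0.12, SE 0.07). EIF4A2, an RNA helicase of translation initiation that also hosts snoRNAs, had 291, 283 and 257 CPM against 356, 320.5 and 344 (-0.31, SE 0.07). Both genes have a tract at their start and were picked after their values were seen. The part of the tract in any of these values was not tested.

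RPS29, a zinc-binding protein of the small subunit, had the largest difference of the ribosomal list, with 643, 768 and 852 CPM against 1065, 1007 and 980.5 (755 ± 105 against 1018 ± 43.2, SD, n = 3 each; log2 fold change -0.45, SE 0.09; edgeR adjusted p 0.151, DESeq2 0.00105). RPL31, of the large subunit, had 1329, 1379.7 and 1454 CPM against 1819, 1746 and 1635 (-0.33, SE 0.07). RPL41, one of the smallest proteins encoded in the genome, had 1061, 1229 and 1255 CPM against 1355, 1413 and 1568 (-0.30, SE 0.08). None of these groups overlapped. The highest of the list was RPL7A, with 1334, 1358 and 1380.0 CPM against 1325, 1271 and 1251 (0.07, SE 0.06). Ribosomal protein genes have many processed pseudogenes, and reads split among copies could not be assigned, so single values are uncertain. Without the first control plasmid library the list's median was -0.11.

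Fold change also varied weakly with transcript length across protein-coding genes in general (Spearman's rho 0.15 across 10896 genes of the same 6 libraries, and 0.09 in the other 6, as a description since genes are not independent replicates). Genes whose median mature transcript was at most 600 nt had a median log2 fold change of -0.17 (138 genes), those of 600 to 1000 nt -0.08 (727), those of 2000 to 4000 nt 0.01 (4369) and those over 8000 nt 0.05 (493). Outside the lists of cytosolic ribosomal, mitochondrial ribosomal and respiratory chain genes, the 93 genes of at most 600 nt had a median of -0.16 and the 640 genes of 600 to 1000 nt -0.06. In the same length classes, ribosomal protein genes had -0.18 (20 genes) and -0.15 (41), and respiratory chain genes -0.22 (21) and -0.19 (28). At 1000 to 1500 nt, ribosomal protein genes had -0.13 (13 genes), respiratory chain genes -0.07 (9) and genes outside the lists -0.03 (1098). At 1500 to 2000 nt, ribosomal protein genes had -0.20 (4 genes), respiratory chain genes -0.003 (6) and genes outside the lists -0.004 (1522). The part of transcript length in the values of either list was not tested. The 5 classes of transcript GC content had medians between -0.009 and 0.01.

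**Figure D3:**
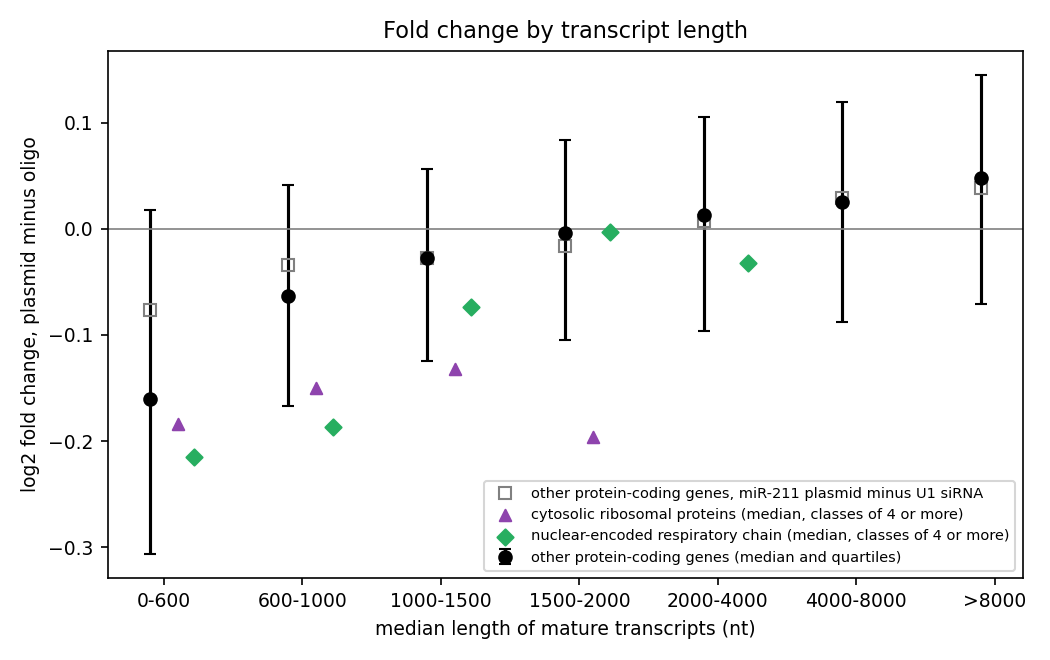
Median log2 fold change (vertical axis) in 7 classes of median transcript length in nt (horizontal axis). Black points with bars are protein-coding genes outside the 3 lists with their quartiles, open squares the same genes in the miR-211 plasmid and U1 siRNA libraries, and triangles and diamonds the ribosomal protein and respiratory chain genes. Genes outside the lists go from below 0 for short to above 0 for long transcripts. Medians of the 2 lists are drawn for classes with 4 or more of their genes, and those of ribosomal protein genes are all below 0.

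Mitochondrial ribosomal proteins, which are nuclear-encoded and translated in the cytosol, had a median of -0.06, with 49 of 70 lower and 8 at an unadjusted p under 0.05, all lower. Over all genes, 51.2% were lower in value and 4.29% were lower at that p. MRPS21 had the smallest p of the 8 (-0.28, SE 0.08).

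Noncoding host genes of small nucleolar RNAs, whose introns carry the guides that direct ribosomal RNA modification, included the genes with the smallest p among those lower with the plasmid. LRRC75A-AS1, also known as SNHG29 (chr17:16438822-16478678 in GENCODE 29, GRCh38), had 292, 347 and 356 CPM with the plasmid and 448, 469 and 438 with the oligo (331 ± 34.8 against 451 ± 15.7, SD, n = 3 each; log2 fold change -0.46, SE 0.08; edgeR adjusted p 0.0644, DESeq2 0.000208). Its name marks it as antisense to LRRC75A. Without strand, pairs in exons shared with a partner on the other strand cannot be told apart. Pairs ambiguous between genes were not counted for any gene. The 2 strand-specific columns held nearly equal totals in these 6 libraries (ratios of 1.076 to 1.098), so they cannot separate such partners. GAS5, a host RNA known to build up when cell growth stops, had 351, 341 and 347 CPM against 427, 434 and 441 (346 ± 4.72 against 434 ± 6.76; -0.34, SE 0.06; edgeR adjusted p 0.0822). Both genes had groups that did not overlap. SNHG6 had 102, 107 and 114 CPM against 156, 152 and 124 (-0.43, SE 0.09), and SNHG15 245, 226 and 258 against 302, 308 and 295 (-0.32, SE 0.07). SNHG16 went the other way, with 367, 398 and 412 CPM against 334, 338 and 332 (0.22, SE 0.06). Over the 23 hosts tested, 17 were lower and 6 higher, where 51.2% of all genes were lower in value. The median was -0.11 (-0.19 without the third control plasmid library and -0.17 without the first scrambled oligo library). Over the 18 alternative settings run it ranged from -0.19 to -0.08. At an unadjusted p under 0.05, 8 were lower, where 4.29% of all genes were, and 1 was higher, where 3.5% were. DESeq2 called 4, all lower. The list was added after values had been seen.

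PSAT1, the second enzyme of serine synthesis and a target of ATF4, had the smallest p of all genes. Its levels were 998, 998 and 883 CPM with the plasmid and 665, 721 and 649 with the oligo (959 ± 66.5 against 678 ± 37.7, SD, n = 3 each; log2 fold change 0.49, SE 0.07; edgeR adjusted p 0.0525, DESeq2 1.75e-07). PGAM1, a glycolytic phosphoglycerate mutase, had 154, 163 and 165 CPM against 117, 121 and 115 (161 ± 5.87 against 117 ± 2.89; 0.44, SE 0.07; edgeR adjusted p 0.0525). In both genes the plasmid libraries lay above the oligo libraries. Of 27 tested genes on the list of ATF4 targets and amino acid stress, 17 were higher and 10 lower, where 48.8% of all genes were higher. The median was 0.08 (0.12 without the first control plasmid library and 0.13 without the third scrambled oligo library). Over the 18 alternative settings run it ranged from 0.05 to 0.13. An unadjusted p under 0.05 was reached by 6, all higher, where 3.5% of all genes were higher at that p. Besides PSAT1 these were the amino acid transporter genes SLC7A1, SLC3A2, SLC7A5 and SLC38A2 (0.29, 0.26, 0.45 and 0.14) and MTHFD2, a mitochondrial folate enzyme (0.15). SLC7A1 had 47.2, 45.5 and 39.4 CPM with the plasmid and 36.4, 34.1 and 36.5 with the oligo. The serine and one-carbon list, added after values had been seen and sharing members with the former, had a median of 0.05, with 13 of 19 higher and 3 at an unadjusted p under 0.05.

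Genes of the unfolded protein response, the chaperones and degradation factors that the endoplasmic reticulum calls on under load, leaned the same way. Of 29 tested, 21 were higher and 8 lower, with a median of 0.11, where 48.8% of all genes were higher. An unadjusted p under 0.05 was reached by 9, all higher, where 3.5% of all genes were higher at that p. In 7 the plasmid libraries lay wholly above the oligo libraries, where 6.64% of all genes did. HSPA5, the main chaperone of the endoplasmic reticulum, had 1006, 1031 and 1012 CPM against 865, 744 and 904 (0.26, SE 0.07; edgeR adjusted p 0.438, DESeq2 0.0284). CALR, a calcium-binding chaperone, had 211, 236 and 249 CPM against 145, 170.1 and 225, which overlapped (0.35, SE 0.12). The others of the 9 were SEL1L, PDIA4, CANX, HERPUD1, HYOU1, DNAJB9 and PDIA6, from 0.16 to 0.30. The second scrambled oligo library was the lowest for HSPA5, and without it the list's median was 0.05. The list's mean log2 CPM, relative to all genes, was 1.29, 1.49 and 1.44 with the plasmid and 1.35, 1.20 and 1.39 with the oligo, which overlapped. Its summed level was 4165, 4365 and 4303 CPM against 3772, 3547 and 3946, which did not.

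Cytosolic chaperones were mixed. Of 19 tested, 12 were higher and 7 lower, with a median of 0.06. HSP90AB1, the constitutive HSP90, had 3709, 3659 and 3451 CPM against 3017, 2969 and 3033 (0.25, SE 0.07), and DNAJB6, a co-chaperone of HSP70, had 167, 191 and 183 against 137, 141 and 147 (0.33, SE 0.07). Neither group of libraries overlapped the other. HSPE1, the mitochondrial co-chaperonin, was lower (-0.20, SE 0.09).

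Most sensors of foreign nucleic acid were scarce in both groups. Of 27 on the list, 15 were below the filter on low counts. CGAS had 1, 1 and 5 counts with the plasmid and 6, 4 and 5 with the oligo, TMEM173, which encodes STING, 5, 0 and 4 against 5, 5 and 10, and IFI16 5, 0 and 3 against 3, 1 and 6. AIM2 had 1 to 6 counts per library over both groups, TLR9 0 to 1, TLR3 5 to 12 and IFIH1, which encodes MDA5, 0 to 3. At these counts a difference was not detectable. DDX58, which encodes RIG-I, had 6.72, 5.34 and 8.09 CPM against 8.47, 6.21 and 6.81 (-0.10, SE 0.20, 95% interval -0.53 to 0.33), and EIF2AK2, which encodes PKR, 114, 118 and 108 against 125, 117 and 105 (-0.04, SE 0.08, interval -0.21 to 0.13). Both genes had overlapping groups, and the direction of each changed when single libraries were left out. PRKDC, the catalytic subunit of the DNA-dependent protein kinase, was the 1 of the 12 tested with an unadjusted p under 0.05, at 445, 465 and 454 CPM against 372, 389.8 and 395 (0.22, SE 0.06; edgeR adjusted p 0.438, DESeq2 0.0379). Over all genes, 7.79% had an unadjusted p under 0.05. DICER1 had 67.2, 59.4 and 58.5 CPM against 56.9, 61.3 and 50.8 (0.12, SE 0.09), and AGO2 51.5, 52.2 and 48.7 against 46.5, 59.9 and 53.03 (-0.08, SE 0.10). Both overlapped, and AGO2 was 0.01 without the second scrambled oligo library.

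Interferon-stimulated genes were low in both groups. Of 32 on the list, 16 were tested, 4 higher and 12 lower with the plasmid, with a median of -0.09, and 15 of the 16 had a 95% interval that ended under a log2 fold change of 1. For 11 of the 16 the interval began above -1, so for the other 5 a log2 fold change of -1 with the plasmid lay within the interval. The 2 with an unadjusted p under 0.05 were lower with the plasmid, where 4.29% of all genes were lower at that p. IFI44L had 16, 12 and 9 counts against 36, 14 and 42 (-1.15, SE 0.34), and IFIT1, an RNA-binding antiviral protein, 5.12, 9.78 and 7.42 CPM against 15.1, 10.1 and 9.48 (-0.64, SE 0.23). The groups overlapped in both genes. ISG15 had 7 to 14 counts per library and MX1 2 to 9. IFNB1, the interferon itself, had 1, 0 and 0 counts against 1, 0 and 0, and CXCL10 0, 1 and 2 against 3, 0 and 5. Of 24 NF-kB and inflammatory genes, 2 were tested, NFKBIA (0.25, SE 0.21) and NFKB1 (0.04, SE 0.20), neither with an unadjusted p under 0.05.

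The remaining lists lay nearer to 0 or rested on few genes. Over all genes, 3.5% were higher and 4.29% lower at an unadjusted p under 0.05. Targets of YAP and TGF-beta had a median of 0.25 over 18 tested genes (13 higher), but 2 had an unadjusted p under 0.05 and the median was 0.10 without the first scrambled oligo library and 0.14 without the first control plasmid library. Splicing factors of the SR and hnRNP families had a median of 0.05 (31 of 43 higher, 7 higher and 2 lower at an unadjusted p under 0.05), with HNRNPU, a nuclear matrix protein, at 517, 495 and 489 CPM against 446, 414 and 384 (0.26, SE 0.07). Replication-dependent histones had members on both sides: HIST1H4C, a histone H4 gene, had 2482, 3329.6 and 3554 CPM against 4092, 4315 and 3785 (-0.39, SE 0.11), and HIST1H1E, a linker histone gene, 369.9, 498 and 541 against 429, 349 and 324 (0.34, SE 0.12), which overlapped. DNA replication, mitosis, proteasome and cholesterol genes had medians of 0.02, -0.01, 0.03 and 0.01. Among single genes at the ends of the ranking, CSRP2, a LIM-domain protein, had 182, 190.0 and 196 CPM against 257, 240.4 and 229.9 (-0.37, SE 0.07), and VSIG10 26.2, 26.4 and 27.1 against 35.4, 40.0 and 36.3 (-0.50, SE 0.10), neither overlapping.

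**Figure D4:**
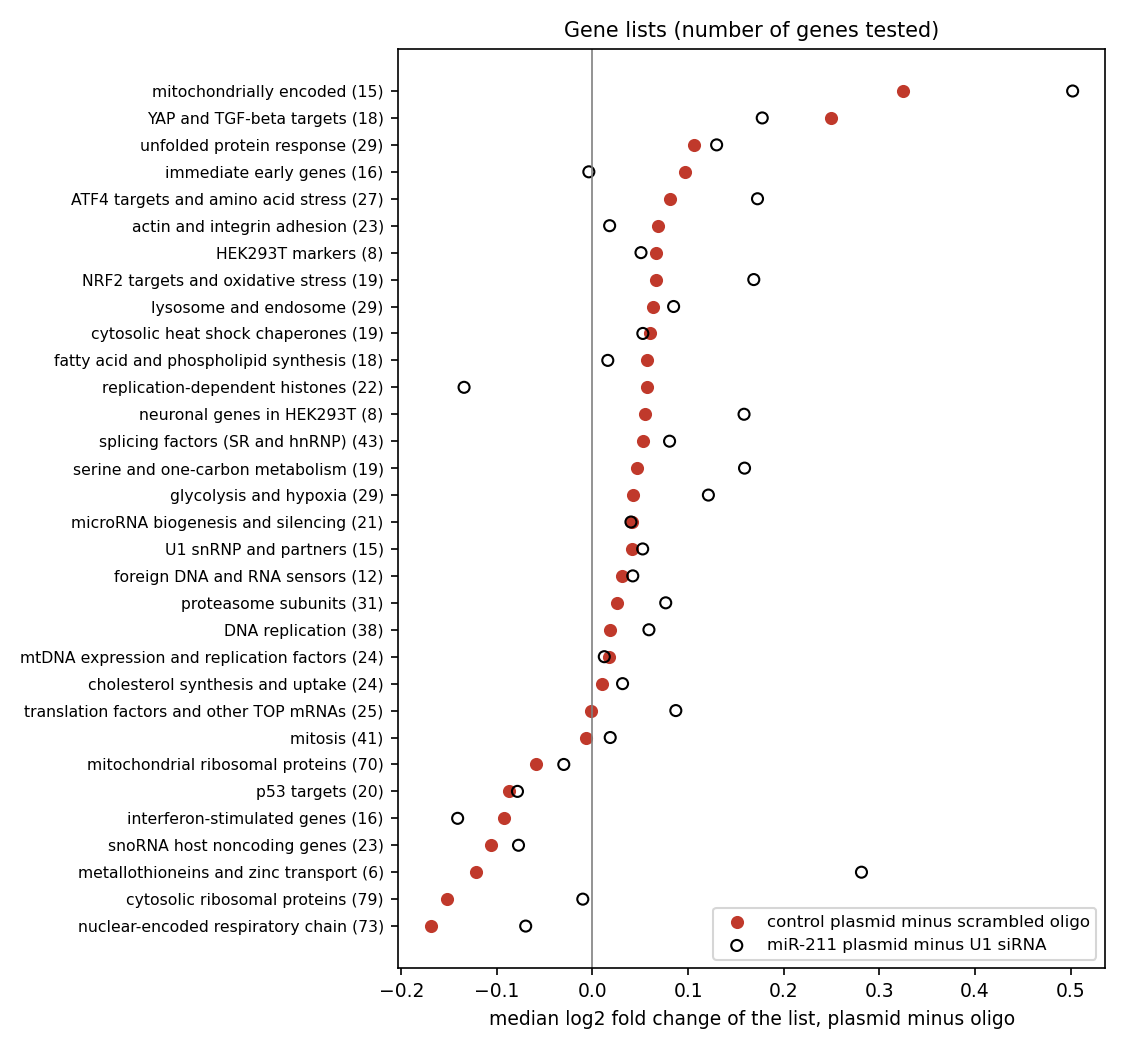
Median log2 fold change (horizontal axis, plasmid minus oligo) of each gene list with at least 5 genes tested (vertical axis, number tested in parentheses). Filled points are control plasmid minus scrambled oligo and open points miR-211 plasmid minus U1 siRNA; mitochondrially encoded genes are highest in both (0.32 and 0.50), while cytosolic ribosomal proteins are at -0.15 and -0.01.

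The other 6 libraries give the same kind of contrast with no library shared, although they carry the active reagents. By titles and order, the miR-211 plasmid goes with the control plasmid and U1 siRNA with the scrambled oligo. Any difference between the experiments can therefore recur in this contrast, and here too it cannot be told apart from plasmid against oligo. For miR-211 plasmid against U1 siRNA, 1 of 12416 genes passed (0.00805%), MIR211, the gene the plasmid carries. One of these libraries stood apart: in the second U1 siRNA library 44.5% of uniquely mapped pairs lay outside exons. All 15 mitochondrial genes were again higher with plasmid, with a median of 0.50, and 14 had an unadjusted p under 0.05. Over all genes of that contrast 48.0% were higher and 52.0% lower in value, and 5.06% had an unadjusted p under 0.05 (3.21% higher and 1.85% lower). Groups did not overlap for 5.15% of genes on the higher and 5.13% on the lower side. MT-CYB had 3102, 3074 and 2628 CPM with the miR-211 plasmid and 2024, 1921 and 1941 with U1 siRNA (0.60, SE 0.09). LRRC75A-AS1 had 285, 338 and 312 CPM against 421, 404 and 403 (-0.37, SE 0.09), and PSAT1 1029.7, 990.3 and 861 against 798, 776 and 814 (0.29, SE 0.09). In these genes, too, the groups did not overlap. The ATF4 list had a median of 0.17, with 23 of 27 higher and 6 higher at an unadjusted p under 0.05. The unfolded protein response list had a median of 0.13, but 1 of its 29 genes had an unadjusted p under 0.05, against 9 of 29 in the comparison of the control arms. Its summed level was 4080.1, 3278 and 4057 CPM with U1 siRNA, lowest in the library that stood apart, and 4184, 4110.3 and 4095 with the miR-211 plasmid.

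Several of the other lists and genes lay nearer to 0 in those libraries. Ribosomal protein genes had a median of -0.01 (35 of 79 higher) and respiratory chain genes -0.07 (25 of 73 higher). GAS5 had -0.08 (SE 0.08), RPS29 -0.16 (SE 0.11) and PGAM1 0.04 (SE 0.12). PGAM1 was at 158, 130.4 and 161 CPM with U1 siRNA, a range that reached the control plasmid's 154 to 165 and lay above the scrambled oligo's 115 to 121. DNAJB6 had -0.14 (SE 0.11), with 182, 162 and 184 CPM with U1 siRNA against 137, 141 and 147 with the scrambled oligo. For both genes the scrambled oligo libraries were the low group among the oligo libraries. A test of the difference between both contrasts passed for 1 of 13520 genes (0.0074%), MIR211, so no other gene was shown to differ between them.

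**Figure D5:**
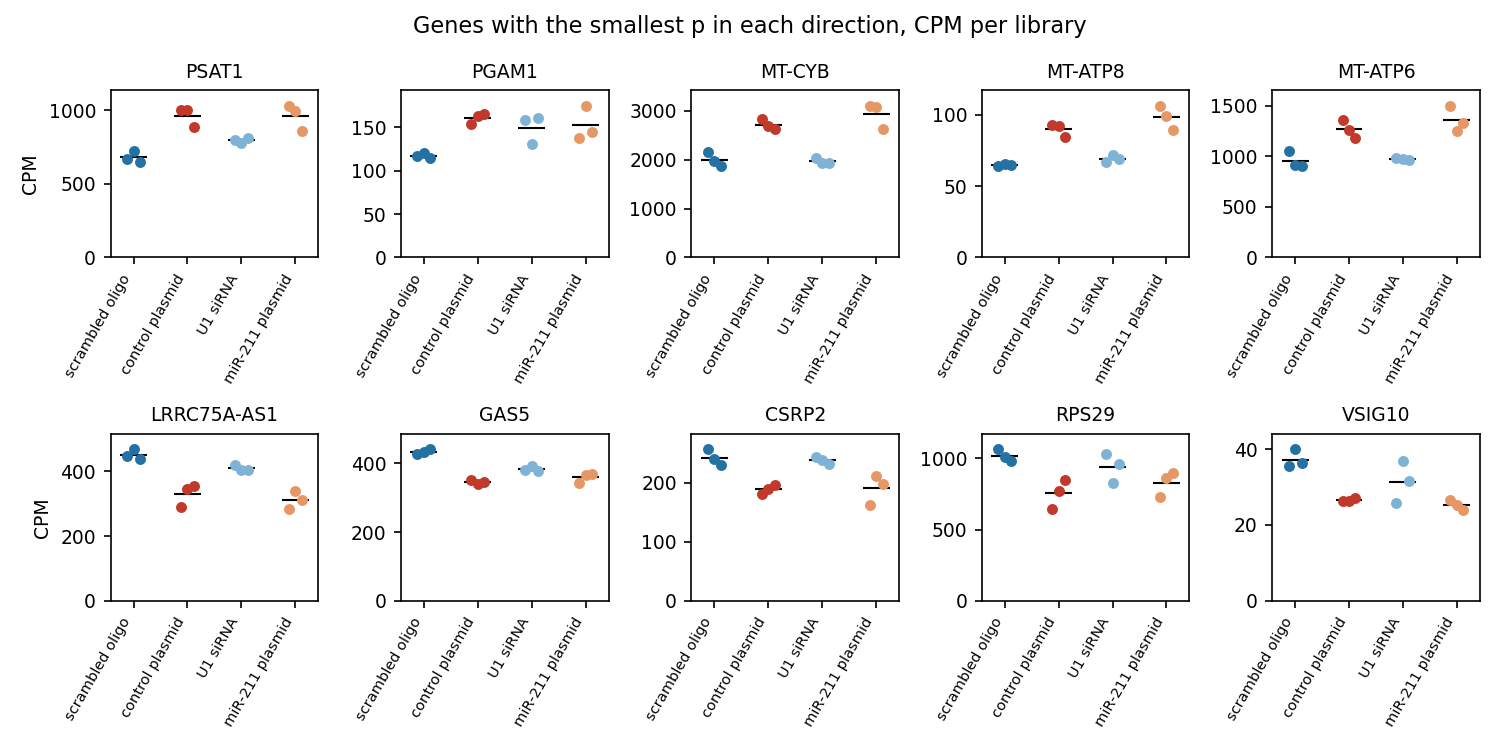
CPM per library (vertical axes start at 0) of the 5 genes with the smallest p in each direction, in the 4 groups (horizontal axis); points are libraries and bars group means. MT-CYB, MT-ATP8, MT-ATP6, PSAT1, LRRC75A-AS1, GAS5 and CSRP2 separate both plasmid groups from both oligo groups. PGAM1 is low with the scrambled oligo and not with U1 siRNA.

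Over all 12 libraries, the mean of both plasmid groups was set against the mean of both oligo groups in one fit chosen after seeing the data, which reuses the 6 libraries above. The fit also holds any difference between the experiments. It called 25 of 13520 genes (0.185%), 20 higher (0.148%) and 5 lower (0.037%) with plasmid. Of these, 10 lie on the mitochondrial chromosome, all of them higher, led by MT-CYB (0.51, SE 0.05; edgeR adjusted p 0.00036) and including the transfer RNA gene MT-TP (0.49, SE 0.08). MTATP6P1 and MIR211 were also called. The other 13 were nuclear. PSAT1 rose (0.39, SE 0.05; edgeR adjusted p 0.00425), as did FAM208B, which encodes a protein of the TASOR family (0.44, SE 0.06; adjusted p 0.00376), SPEN, a repressor that binds RNA (0.44), MDN1, an ATPase of ribosome assembly (0.36), SRRM2, a splicing protein (0.39), KAT6A, a histone acetyltransferase (0.35), HSP90AB1 (0.28) and PRRC2C (0.22). LRRC75A-AS1 fell (-0.42, SE 0.06; edgeR adjusted p 0.00376), as did CCDC181 (-0.53), CSRP2 (-0.34), ETNK1, an ethanolamine kinase (-0.30), and EIF4A2 (-0.29). FAM208B had 99.5, 85.7 and 90.1 CPM with the control plasmid and 91.1, 90.8 and 100.1 with the miR-211 plasmid, against 72.2, 68.8 and 63.5 with the scrambled oligo and 71.6, 65.6 and 69.4 with U1 siRNA, so all plasmid libraries lay above all oligo libraries. That was so for 114 of 13520 genes (0.843%), and the reverse for 63 (0.466%). Among the mitochondrial genes it was so for 9 of 15. When each of the 12 libraries was left out in turn, MT-CYB, MT-ATP8, MT-ATP6, LRRC75A-AS1, FAM208B and PSAT1 were called in all 12 fits, while the number of genes called ranged from 7 (without the second control plasmid or the second scrambled oligo library) to 21. It was 8 without the first control plasmid, 10 without the third scrambled oligo, 12 without the third control plasmid, 14 without the first and 15 without the third miR-211 plasmid, and 16 without the first scrambled oligo library. The other 19 genes depended on single libraries. PRRC2C and MT-ND4 were called in 0 of the 12 fits, HSP90AB1, SRRM2 and ETNK1 in 1, EIF4A2, CSRP2, KAT6A and MT-RNR1 in 2, and MT-ND1 and MT-ND3 in 3. SPEN, MT-ND2 and MT-CO3 were called in 5, MDN1 in 6, CCDC181 in 8, MT-TP and MTATP6P1 in 9 and MIR211 in 11.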

How the data were processed

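The deposited values are raw counts of read pairs per gene, not normalized by the authors. STAR 2.7.2a and GRCh37/hg19 appear in the submitters' processing notes, while all 58735 identifiers are those of GENCODE 29, made on GRCh38; gene names and lengths came from GENCODE 29, and the aligned build is not settled. The 4 summary rows were dropped. How libraries were made, and whether strand was kept, is not stated in the labels.

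Counts were tested with edgeR 4.0.16 (R 4.3.3; TMM scaling, filterByExpr, quasi-likelihood test, Benjamini-Hochberg adjusted p under 0.05 over all genes tested). The comparison used 3 against 3 libraries with no replicate block. Whether groups overlap was judged on CPM scaled within the 6 libraries; printed CPM are scaled over all 12. DESeq2 1.42.0, limma-voom (limma 3.58.1), other scalings, filters, strand columns, a covariate and leaving out each library were alternatives. Intervals are 95%. Shares were compared by exact permutation tests in Python 3.11.15. The test was checked on simulated counts of 12650 genes, 200 of them changed. It recovered 5.8% of the changed genes at a fold of 1.25, 51.4% at 1.5 and 78.1% at 2. Of its calls, 16.5%, 9.89% and 9.40% were false. The absence of called genes therefore does not show that small differences are absent.

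The comparison and gene lists (33, and 5 added later) were chosen with earlier results of these data known; lists are described by counts and medians, without set tests. Named genes are the 5 smallest p in each direction, since fewer than 10 genes passed, with nucleic acid sensors, DICER1, AGO2 and MIR211. Other members named in a list were chosen after their values were seen, mostly by smallest p. Starts and sequences are from RefSeq (GRCh38.p14).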

Additional observations from a re-analysis of the deposited data

Results flagged for a closer look

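MIR211 was the single gene whose plasmid-against-oligo difference itself differed between the 2 sets of libraries. The log2 difference was -7.83 for control plasmid minus scrambled oligo less miR-211 plasmid minus U1 siRNA (SE 1.15, edgeR adjusted p 0.0447 over 13520 genes). MIR211 had 1, 9 and 1 counts with the control plasmid and 2, 8 and 1 with the scrambled oligo, and was below the filter on low counts in that comparison. With the miR-211 plasmid, which carries this gene, it had 276, 245 and 260.0 CPM, against 0.636, 1.27 and 1.24 with U1 siRNA.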

How the results depend on the processing

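For control plasmid against scrambled oligo, edgeR called 0 genes, and the other settings called 2 (without mitochondrial genes), 51 (no filter on low counts, 27 higher and 24 lower), 2 (at least 10 counts in every library), 34 (DESeq2), 3 (limma-voom), 4 and 6 (strand columns 3 and 4) and 30 (replicate block, 19 higher and 11 lower). Leaving out 1 library in turn gave 0 to 21, with 21 without scrambled oligo replicate 3. Deviations of genes from their group mean correlated by 0.0435, 0.0288 and 0.174 between same-numbered libraries of the 2 groups. Between libraries of unlike number they correlated by -0.107 to 0.0706. The labels do not say that a number marks a shared batch, so the numbers were not taken to pair libraries. For miR-211 plasmid against U1 siRNA, DESeq2 called 3 and the replicate block 2. Over all 12 libraries, 48 were called with at least 10 counts in every library, and 7 to 21 without single libraries. DDX58 (-0.10) was 0.076 in strand column 3 and -0.27 to 0.039 with single libraries left out, EIF2AK2 (-0.04) was 0.033 without scrambled oligo replicate 1, and AGO2 (-0.08) was -0.15 to 0.010 with single libraries left out. The cause of these changes was not tested. Medians of the mitochondrial (0.23 to 0.46), ribosomal protein (-0.23 to -0.11) and respiratory chain (-0.21 to -0.10) lists kept their sign in every setting run; of 558 alternatives for the other 31 lists and length classes, 37 changed sign. No scaling moved the median of all genes outside -0.03 to 0.02. CGAS, TMEM173, IFI16, AIM2, TLR9, TLR3 and IFIH1 had 0 to 12 counts per library, too few to show a difference.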
